A study of Caenorhabditis elegans with 2 samples.

Results

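The genes described here are 10 core genes of the *C. elegans* insulin signalling pathway, out of 19973 protein-coding genes on the nuclear chromosomes. They were listed by name: daf-2, age-1, daf-18, pdk-1, akt-1, akt-2, sgk-1, daf-16, par-5 and ftt-2, and all 10 were found in the WBcel235 annotation (the ce11 build). Chromatin of whole, mixed-sex L2 larvae was immunoprecipitated through an eGFP-tagged transcription factor (ChIP-seq) in 2 biological replicates of 1 group. The animals were strain OP355, with the allele unc-119(tm4063) on chromosome III and the integrated transgene wgIs355. The factor is mdl-1, a Mad-like basic helix-loop-helix gene, by the source and antibody labels, and ZK337.2 by the description. The highest of the 2103 reproducible peaks, with a signal of 986, lay 97 bp from the mdl-1 start, and there were 7 such summits in mdl-1 or 5 kb upstream, against 1 for ZK337.2. At mdl-1 the transgene and the endogenous locus cannot be told apart, so these values do not settle which label is right. The series has no untreated or mutant group, so the comparisons are between these genes and all genes, and between the replicates.

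In this pathway, insulin-like peptides bind the receptor tyrosine kinase DAF-2, which activates the phosphoinositide 3-kinase AGE-1. The lipid phosphatase DAF-18 reverses the AGE-1 reaction, and the lipid product brings the kinases PDK-1, AKT-1, AKT-2 and SGK-1 into play. AKT kinases phosphorylate the forkhead factor DAF-16, and 14-3-3 proteins, PAR-5 and FTT-2 in the worm, bind it and hold it in the cytoplasm. The pathway is known for its control of dauer entry, stress resistance and lifespan.

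Of the 10 genes, 7 had a reproducible summit in the gene or within 5 kb upstream, 14 summits in all. A reproducible peak is one in the authors' optimal set by irreproducible discovery rate (IDR), and the summit is its point of highest signal. Over all protein-coding genes, 14.4% had such a summit in the same kind of window. The kinase genes pdk-1, akt-1 and akt-2, the receptor gene daf-2, the forkhead gene daf-16 and both 14-3-3 genes had summits. The phosphoinositide kinase gene age-1, the phosphatase gene daf-18 and the kinase gene sgk-1 had none. In the promoter window, from 1000 bp upstream to 200 bp downstream of any transcript start, 4 of the 10 genes had a summit (akt-2, daf-16, par-5 and ftt-2), against 6.54% of all genes. The list was chosen with earlier results of these data known, so these counts carry no test.

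The genes differ in length, and a longer window has more room for summits. The window was 51.3 kb for daf-2 and 31.2 kb for daf-16, with a median of 10.9 kb for the 10 genes and 7.03 kb for all genes. Per 10 kb of window, the 10 genes together had 0.871 reproducible summits and all genes 0.221. By gene the density was 2.98 for ftt-2, 2.24 for akt-1, 1.72 for pdk-1, 1.56 for par-5, 1.28 for daf-16, 1.07 for akt-2 and 0.39 for daf-2. This order rests on 1 to 4 summits a gene and does not hold in each replicate. The 2 summits of ftt-2 were 1 among the 2103 highest peaks of replicate 1 and 1 among those of replicate 2, and the 2 of akt-1 were 1 in replicate 1 and 2 in replicate 2. The 2 of pdk-1 were 2 in both.

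The windows around 5 of the summits are shown because each holds a sequence word that was searched at every summit: the E-box at the akt-1 summit, the repeat at daf-2, the GA word at par-5, and the word that both pdk-1 summits share. Each is 101 bases centred on the summit, on the plus strand of ce11 (RefSeq WBcel235 assembly), with the matching words in capitals: CACGTG (the E-box bound by Mad and Max family dimers), GAGAGA and CTGCGTCT, on either strand. The akt-1 window is chrV:10246553-10246653, the daf-2 window chrIII:3037373-3037473 and the par-5 window chrIV:11822011-11822111. The pdk-1 windows are chrX:1319941-1320041 upstream and chrX:1323197-1323297 in the intron. None of them overlaps an annotated UTR.
akt-1 peak 1: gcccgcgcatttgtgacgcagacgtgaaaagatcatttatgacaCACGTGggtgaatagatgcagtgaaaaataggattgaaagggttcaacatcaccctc
daf-2 peak 1: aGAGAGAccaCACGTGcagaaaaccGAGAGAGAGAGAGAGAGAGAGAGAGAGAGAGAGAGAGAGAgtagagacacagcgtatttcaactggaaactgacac
par-5 peak 1: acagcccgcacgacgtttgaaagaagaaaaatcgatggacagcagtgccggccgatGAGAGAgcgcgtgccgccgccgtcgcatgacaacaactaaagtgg
pdk-1 peak 1: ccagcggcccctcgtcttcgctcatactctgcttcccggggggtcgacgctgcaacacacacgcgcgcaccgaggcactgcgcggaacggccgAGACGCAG
pdk-1 peak 2: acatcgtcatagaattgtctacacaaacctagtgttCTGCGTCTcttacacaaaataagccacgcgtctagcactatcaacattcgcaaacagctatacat

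**Figure D1:**
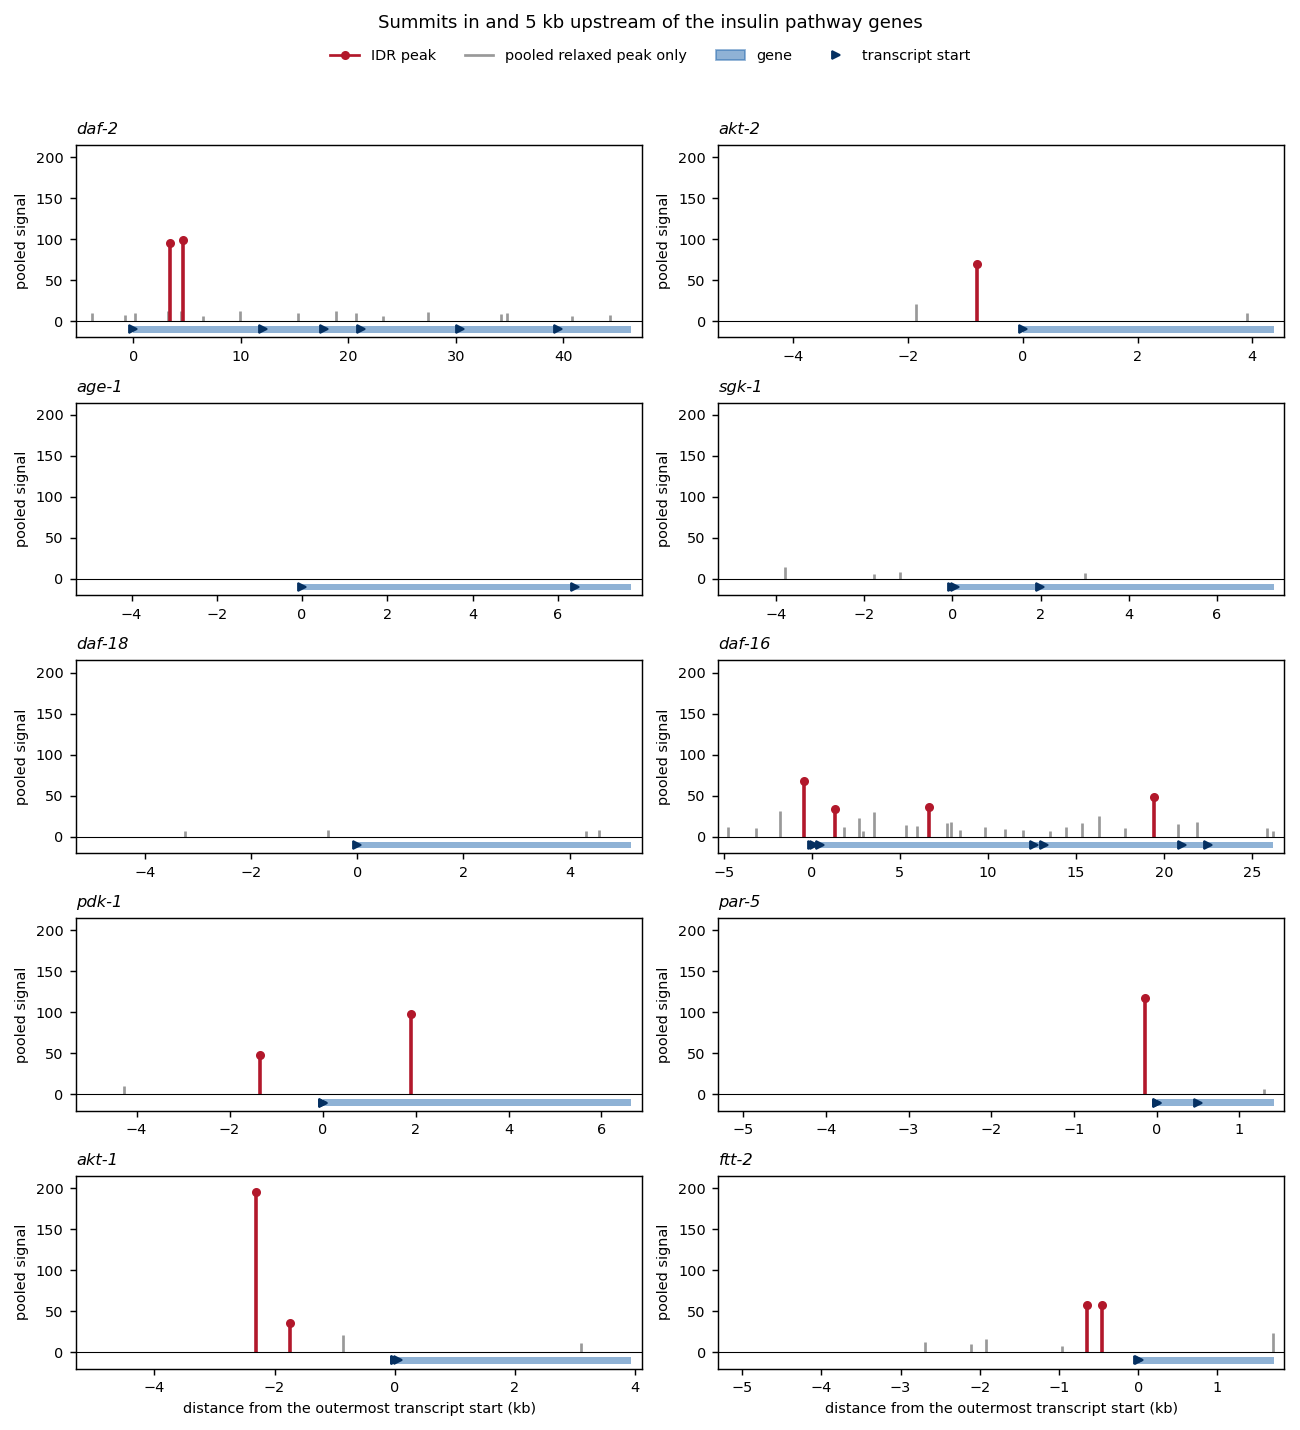
Signal of each pooled summit (y axis, the authors' units) against its distance from the outermost transcript start of the gene (x axis, kb, gene reading left to right), with reproducible (IDR) peaks in red, other pooled peaks in grey, the gene as a blue bar and transcript starts as triangles. The akt-1 peak with a signal of 195 is the highest, the daf-2 peaks stand downstream of the first start, and age-1, daf-18 and sgk-1 have no red peak.

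The receptor gene daf-2 (WBGene00000898, III, 2994514 to 3040846, minus strand) had both of its summits inside the gene and none in a promoter window. They lay 3423 and 4652 bp downstream of the outermost start, that of transcript Y55D5A.5c.1, in its first intron of 11981 bp. The next start downstream, that of Y55D5A.5a.1, was 7394 bp from the nearer summit. The signals were 95.4 and 98.3, and the ranks 399 and 380 of 2103. In replicate 1 the overlapping peaks had signals of 35.9 and 50.2, at ranks 428 and 222, and in replicate 2 they had 59.3 and 54.6, at ranks 407 and 475. Both summits were thus among the 500 highest of each replicate. Signal is the authors' own value per peak with no stated scaling, so replicates are compared by rank and no mean over them is given.

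The first daf-2 summit, shown above, lies in an uninterrupted GA repeat of 41 bases, with a CACGTG starting 40 bp from the summit position. The second has one GAGAGA. How reads were assigned to this repeat is not given in the sources used here, and its part in the signal was not tested. The other 16 pooled peaks of daf-2, spread along the gene and upstream of it, had signals of at most 12.1.

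The genes of the 2 enzymes of the lipid step had no reproducible summit, and of all protein-coding genes only 14.4% had one in such a window. The gene age-1 (WBGene00000090, II, 11519328 to 11527054, minus strand) had 0 summits in the pooled list and 0 in replicate 2. Replicate 1 listed 2, with signals of 5.76 and 2.99 at ranks 8628 and 23342 of 30000. The gene daf-18 (WBGene00000913, IV, 420011 to 425177, minus strand) had 4 pooled summits, the highest with a signal of 7.99 at rank 20217 of 28651, 549 bp upstream of daf-18 and 442 bp from the start of garr-1. Its best ranks were 6936 in replicate 1, in a coding exon, and 11740 in replicate 2, upstream of the start. The relaxed lists include background, and the reproducible peaks, which are pooled peaks too, had signals of at least 32.5. With the reach extended to 10 kb, age-1 gained 1 summit with a signal of 57.9, 7972 bp upstream of it and 547 bp from the start of Y62F5A.12, the nearest gene.

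The kinase gene pdk-1 (WBGene00003965, X, 1321344 to 1327986, plus strand) had one summit on each side of its starts. The upstream one lay 1353 bp before the first start, with a signal of 48.2 at rank 1173, and had ranks of 1792 in replicate 1 and 922 in replicate 2. The other lay in the second intron, 1894 bp downstream of the nearest start, with a signal of 97.9 at rank 381. Its overlapping peaks had signals of 44.6 at rank 294 in replicate 1 and 58.5 at rank 417 in replicate 2. The intronic summit therefore ranked above the upstream one in both replicates. Both windows hold CTGCGTCT, shown above, starting 43 bp from the upstream summit and 14 bp from the intronic one.

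The AKT kinase gene akt-1 (WBGene00000102, V, 10248905 to 10252845, plus strand) had the highest signal of the 10 genes. Its peak 1 lay 2302 bp upstream of the first start and had a signal of 195 at rank 114 of 2103. The overlapping peaks had a signal of 75.8 at rank 107 in replicate 1 and of 118 at rank 122 in replicate 2, and their summits were 4 and 0 bp from the pooled summit. Its CACGTG, shown above, begins 6 bp from the summit, the closest of the 3 E-boxes at these summits. A weaker peak 2 lay 1737 bp upstream, with a signal of 36.1 at rank 1799, and ranked 2783 in replicate 1 and 1351 in replicate 2. Neither lies in the promoter window. The nearest start of another gene, C12D8.9 (named after its values were seen), was 3398 bp from peak 1.

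The second AKT gene, akt-2 (WBGene00000103, X, 14147700 to 14152070, plus strand), had one summit, 799 bp upstream of its start, with a signal of 69 at rank 666. It ranked 1770 in replicate 1, with a signal of 14.9, and 456 in replicate 2, with 56. None of the 5 words searched lies within 50 bp of it, although the akt-2 window holds 6 CACGTG sites elsewhere. The third kinase of this branch, sgk-1 (WBGene00004789, X, 16254842 to 16262122, minus strand), had no reproducible summit. Its highest pooled signal was 14.3 at rank 6910, and the best ranks were 9311 in replicate 1 and 7250 in replicate 2. That pooled summit lay 3797 bp upstream of sgk-1 and 233 bp from the start of mua-6. Among the AKT-type kinase genes the order by highest signal was therefore akt-1, akt-2 and sgk-1 in the pool and in both replicates.

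The 14-3-3 genes had summits close to their starts. The gene par-5 (WBGene00003920, IV, 11820506 to 11821924, minus strand) had one, 137 bp upstream of its outermost start, the shortest distance of the 14. Its signal was 117 at rank 275, with 36.2 at rank 416 in replicate 1 and 82 at rank 240 in replicate 2. A start of the neighbouring gene M117.3, named after its values were seen, lies 145 bp away on the other side, so position does not assign this peak to one of the 2 genes. GAGAGA begins 6 bp from the summit.

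The gene ftt-2 (WBGene00001502, X, 11603708 to 11605419, minus strand) had 2 summits, 652 and 452 bp upstream of its first start, with near-equal signals of 57.5 and 57.9. In replicate 1 the nearer one overlapped a peak with a signal of 37.5 at rank 394, and the farther one overlapped a peak with a signal of 4.38 at rank 13815. In replicate 2 the same peak, with a signal of 51.8 at rank 513, overlapped both, with its summit 8 bp from the farther and 192 bp from the nearer. A weaker replicate 2 peak, with a signal of 17.4 at rank 2732, overlapped the farther one too. The highest-ranked summit thus lay at the nearer position in replicate 1 and close to the farther one in replicate 2. These 2 pooled peaks are not independent, since both were matched to the same peak in replicate 2. Neither ftt-2 summit had any of the 5 words.

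The output factor gene daf-16 (WBGene00000912, I, 10750498 to 10776703, plus strand) had 4 reproducible summits, and 0.250% of all genes had 4 or more. Among the 2103 highest peaks of each replicate, it had 2 in replicate 1 and 6 in replicate 2. It has 11 annotated transcripts with 7 distinct starts, known for isoforms made from alternative promoters, and only 92 genes had a longer window. The summit of highest signal, 67.7 at rank 682, lay 454 bp upstream of the outermost start (R13H8.1h.1) and 588 bp upstream of that of R13H8.1f.1. It ranked 1325 in replicate 1, with a signal of 18.1, and 559 in replicate 2, with 49.3. The other 3 were intronic. One lay 876 bp downstream of the R13H8.1d.1 start and another 5976 bp upstream of that of R13H8.1b.1, both in an intron of 12401 bp. The last, in an intron of 7676 bp, lay 1590 bp upstream of the R13H8.1a.1 start.

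These 3 intronic summits differed in how the replicates ranked them. The first, with a signal of 33.8 at rank 1992, ranked 5682 in replicate 1 and 1419 in replicate 2. The second, with 36 at rank 1802, ranked 4736 in replicate 1 and 1119 in replicate 2. The last, with 47.8 at rank 1195, ranked 673 in replicate 1 and 1623 in replicate 2. The first 2 are outside the 2103 highest of replicate 1, which lists them with −log10 q-values of 3.10 and 3.13. Outside the set, daf-16 had 5 further pooled peaks whose −log10 q-value reached 2. The highest of them, 1803 bp upstream of the gene, had a signal of 31.2 at pooled rank 2220, just under the lowest reproducible signal of 32.5, and holds CACGTG.

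**Figure D2:**
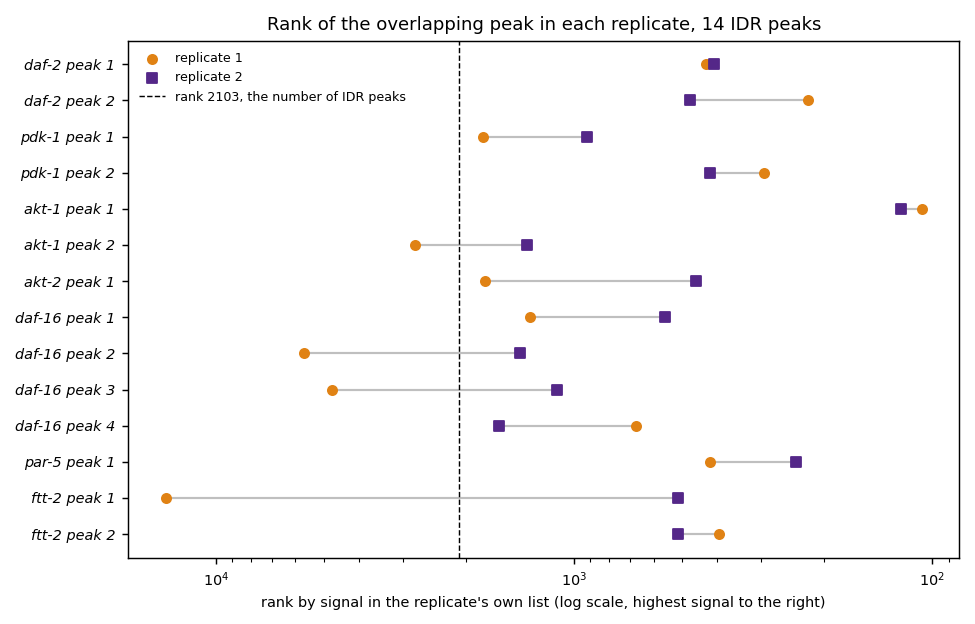
Rank of the overlapping peak in replicate 1 (circles) and replicate 2 (squares) for each of the 14 reproducible peaks (rows, numbered along each gene), on a log axis with the highest signal to the right. The dashed line marks rank 2103, and 4 circles but no square lie beyond it to the left, the farthest being ftt-2 peak 1 at 13815.

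In sum over the replicates, 10 of the 14 peaks overlapped one of the 2103 highest peaks of both replicates by at least 1 bp, and 68.9% of all reproducible peaks did. All 14 met a peak of that kind in replicate 2 and 10 did in replicate 1. The rank was better in replicate 2 for 9 of the 14 peaks, and for 53.5% of the 2092 reproducible peaks matched in both replicates. Spearman's correlation of signal between the replicates was 0.65 over the 14 peaks and 0.60 over the 2092, given as a description, since the same pooled reads chose the peaks and read depth is unknown. The pooled summits lay a median of 26 bp from those of replicate 1 and 3.5 bp from those of replicate 2, against 18 and 8 bp over all reproducible peaks.

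Each replicate alone gave the same 7 genes, but the reproducible set rests on these same replicates, so this is not independent support. Among its own 2103 highest peaks, replicate 1 placed summits at daf-2, pdk-1, akt-1, akt-2, daf-16, par-5 and ftt-2, and over all genes 14.2% had one. Replicate 2 placed summits at these genes too, where 14.4% of all genes had one. Of these genes, 4 (daf-2, pdk-1, akt-1 and par-5) had one of the 500 highest reproducible peaks. The exact number of all genes with such a peak was not counted, but the order of genes by highest reproducible signal bounds it. In that order pdk-1, with its highest peak at rank 381, came at place 542. The gene akt-2, with its peak at rank 666, came at place 961. At least 542 and fewer than 961 of the 19973 genes thus had one of the 500 highest peaks.

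By the highest reproducible signal in the window, akt-1 came at place 165 of the 2874 genes that had any. It was followed by par-5 at 397, daf-2 at 541, pdk-1 at 542, akt-2 at 961, daf-16 at 980 and ftt-2 at 1282. The median over those 2874 genes was 54.1, and the highest signal of each of the 7 pathway genes was above it. The signals of daf-2 and pdk-1 were 98.3 and 97.9. The order differed between the replicates: by best rank, par-5 (416) came after daf-2 (222), pdk-1 (294) and ftt-2 (394) in replicate 1 and before them in replicate 2, where it ranked 240. The gene akt-1 came first in both, at ranks 107 and 122.

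**Figure D3:**
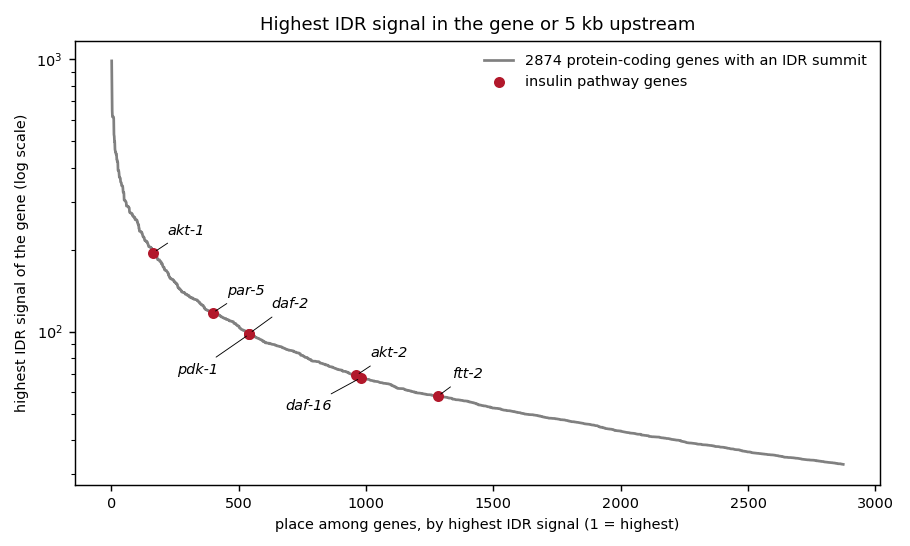
Highest reproducible signal in the gene or 5 kb upstream (log axis) against the gene's place in that order, for 2874 protein-coding genes (grey line) and the 7 pathway genes (red). The pathway genes lie from place 165 (akt-1) to 1282 (ftt-2), all above the median signal of 54.1.

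By position, 8 of the 14 summits lay upstream of the outermost start and outside any protein-coding transcript, and 6 lay in introns of the gene itself. Over all reproducible summits 67.8% lay outside transcripts, 26.7% in introns and 1.38% in coding exons, and 0 of the 14 lay in a coding exon. For each of the 14, the nearest protein-coding start belonged to the pathway gene. The median distance to it was 1472 bp, with a range of 137 to 5976 bp, and the median over all reproducible summits was 730 bp. For par-5 the margin was small (137 bp against 145 bp to M117.3). In replicate 1 its overlapping peak had its summit nearer to M117.3, at 120 bp against 162 bp.

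The words searched within 50 bp were at 10 of the 14 summits, and at 53.1% of all reproducible summits. CACGTG lay at 3 of the 14 (akt-1 peak 1, daf-2 peak 1 and the first intronic summit of daf-16), against 17.2% of all reproducible summits and 2.07% of flanks 500 bp away. In the highest peaks of replicate 1 alone, 1 summit at these genes held it, and in those of replicate 2, 4 did. GAGAGA lay at 6 of the 14, both daf-2 summits among them, against 32.2% of all and 4.9% of flanks. CTGCGTCT lay at 2 of the 14, both at pdk-1, against 12.2% of all and 0.476% of flanks. These counts are small and are given without a test.

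GTAAACA, the core of the element that DAF-16 itself binds, lay at 1 of the 14 summits, against 1.47% of all reproducible summits and 1.36% of flanks. That one is the upstream summit of daf-16, with the word starting 27 bp from it. TGATAAG, the core of the DAF-16 associated element, lay at 0 of the 14, against 3.76% of all and 1.57% of flanks. Both words lie within 50 bp of a weaker akt-2 summit outside the reproducible set, 1860 bp upstream of the start, which had a signal of 20.4. That summit ranked 2755 in replicate 1 but 24100 in replicate 2. TGATAAG also lay at a daf-16 summit outside the set, with a signal of 17.1. The share of such weaker peaks that hold these words was not computed. Words were matched on both strands. Some can share end bases, but at the 14 summits no match of one word overlapped a match of another, and GAGAGA overlapped itself in repeats. The 14 windows had a median of 49% G or C, and all reproducible summits had 47.5%.

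The 10 windows together held 38 CACGTG sites, or 2.36 per 10 kb, and the genome held 17729, or 1.77 per 10 kb. Within 50 bp of a reproducible summit lay 3 of the 38 sites (7.89%) and 2.13% of the sites in the genome. The 10 windows also had more reproducible summits per 10 kb, 0.871 against 0.221 over all gene windows, and the shares of sites were not adjusted for this. Inside a pooled peak of any signal lay 7 of the 38 (18.4%) and 16.1% of those in the genome. Most E-boxes, at these genes as elsewhere, thus had no reproducible summit. The gene daf-2 had 13 sites, daf-16 had 9, akt-2 had 6, age-1 had 4, pdk-1 had 3, daf-18 had 2 and akt-1 had 1, its only site being the one at peak 1. The genes sgk-1, par-5 and ftt-2 had 0. Of the genes without a reproducible summit, age-1 thus had 4 sites, daf-18 had 2 and sgk-1 had 0. Of those with one, par-5 and ftt-2 had 0 sites and the others 1 to 13. Whether sites and summits go together was not tested.

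Other genes of the pathway were taken from 4 lists, described by counts against the same shares of all genes, 6.54% in promoter windows and 14.4% in the gene or 5 kb upstream. Of 39 insulin-like peptide genes, the ligands of DAF-2, 1 had a promoter summit and 2 had one in the wider window. That gene, ins-39, had its summit 625 bp upstream, with a signal of 158 at rank 165, and ranks of 137 in replicate 1 and 200 in replicate 2. Of 21 other pathway regulators, 2 had a promoter summit and 5 had one in the wider window. The promoter summits were at jnk-1, a stress-activated kinase gene (51.6), and at rict-1, the Rictor subunit gene of a TOR complex (35.2, with gfm-1 as the nearest gene). Outside the promoter window, and named after their values were seen, ist-1, the insulin receptor substrate homolog, had a summit with CACGTG 2549 bp upstream (86.9), and pptr-1, a PP2A regulatory subunit gene, had one 1438 bp upstream (110).

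Of 14 genes for DAF-16 cofactors and regulators, 3 had a promoter summit and 4 had one in the wider window. The acetyltransferase gene cbp-1 had the highest, with a signal of 369 at rank 24, 856 bp upstream, at rank 23 in each replicate. The SWI/SNF subunit gene swsn-1 had one 425 bp upstream (49.8), and smk-1, a phosphatase regulatory subunit gene, had one 60 bp upstream with CACGTG (43.2). Of 23 genes known to respond to DAF-16, 3 had a promoter summit and 5 had one in the wider window. One of the 3 is mdl-1 itself (986), where the transgene and the endogenous locus cannot be told apart. The others were sip-1, a small heat shock gene (36.9, with sly-1 as the nearest gene), and the aquaporin gene aqp-1 (36.8, 120 bp upstream, with GTAAACA). The listed genes sod-3 and mtl-1, named after their values were seen, had no reproducible summit in either window.

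**Figure D4:**
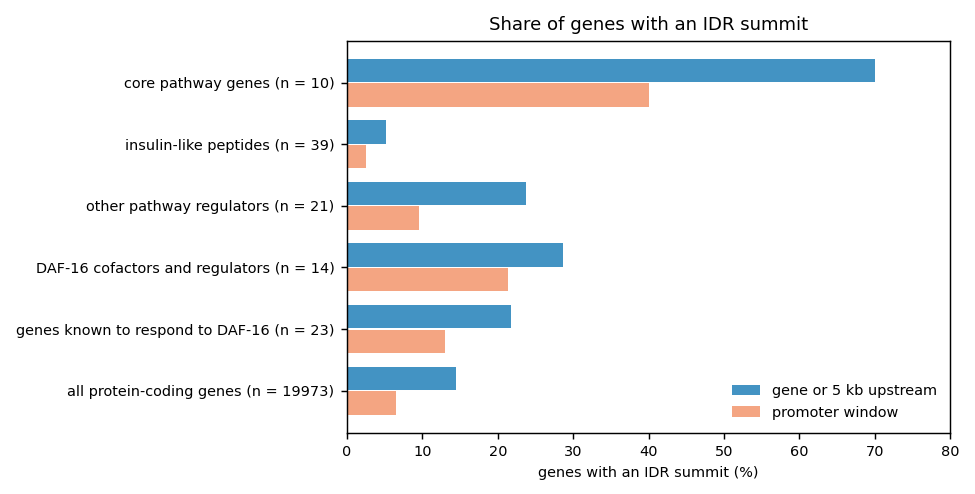
Percent of genes with a reproducible summit in the gene or 5 kb upstream (blue) and in the promoter window (orange) for the 10 core genes, 4 lists of other pathway genes and all 19973 protein-coding genes. The core genes stand at 7 and 4 of 10, the insulin-like peptide genes at 2 and 1 of 39, and all genes at 14.4% and 6.54%.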

How the data were processed

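Peaks came from 4 deposited ce11 lists, described by their deposited names: relaxed lists with background for each of the 2 biological replicates and for the series (read as the pool), and the optimal IDR set. All 2103 IDR peaks are also pooled peaks. The signal value, −log10 q-value and summit offset of each peak were deposited by the authors. For the aligner, caller, IDR threshold and use of a control, the settings were not given in the sources used here. Read depth is unknown, so no counting error can be set on a signal. Fragments were 150 to 350 bp per the labels. The 4 ce10 lists were not used, since annotation and peaks must share a build. The −log10 q-values reach a ceiling within a list (1510 IDR peaks are at it). They served as a threshold of 2 and to describe the daf-16 peaks that replicate 1 ranked low.

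Genes, transcripts and starts came from Ensembl release 115 on WBcel235, and sequence from the RefSeq WBcel235 assembly; 0 peaks passed a chromosome end. Summits, put at the deposited offset from the peak start, were counted from 5000 bp upstream of the outermost start to the gene end. A peak was matched to the overlapping replicate peak (at least 1 bp) with the nearest summit. Replicates were numbered as in the labels. The replicates form 1 group and the genes were listed by name, so no test was made. Members and lists were chosen with earlier results of these data known, and counts are set beside the same counts over all genes. Named are all 10 genes, the nearest gene of each summit, and up to 4 promoter-window genes by signal per further list; ins-38 and btg-1 were not matched to a protein-coding gene. Window assignment was tested on 200 simulated summits drawn inside the same windows, of which 100% were found. This checks the lookup only, not the windows or the deposited summits. Alternatives were other reaches, promoter windows, peak thresholds, overlaps and motif windows, and each replicate alone. Scripts ran in Python 3.11.15 with pandas 2.3.3, numpy 2.4.6 and scipy 1.17.1, and figures used matplotlib 3.10.9.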

Additional observations from a re-analysis of the deposited data

How the results depend on the processing

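The count of 7 genes was 6 with the gene body left out, 8 with 10 kb upstream and 4 in the 500 highest reproducible peaks. It stayed 7 with 2 kb upstream, with nearest starts only and in the 1000 highest peaks. It was also 7 over pooled peaks whose −log10 q-value reached 2, where 5599 of 19973 genes had a summit. Among the 500 highest peaks, at least 542 and fewer than 961 of the 19973 genes had one, by the places of pdk-1 and akt-2. Among the 1000 highest, at least 1282 and at most 2874 genes had one, by the place of ftt-2, whose highest peak had rank 878. For the other windows no count over all genes is given, so the standing against all genes is not shown there. The 14 summits became 8 without gene bodies, 5 in the 500 and 9 in the 1000 highest peaks, and 22 over those pooled peaks; the first 3 follow from fewer positions or peaks, the last from more peaks. The 4 genes with a promoter summit were 3 to 6 under other windows and 1 in the 500 highest peaks, again without a count over all genes. The 3 CACGTG summits were 1 within 25 bp. Without one replicate, the counts ran from 7 to 7 genes, 10 to 15 summits, 4 to 4 promoter genes and 1 to 4 CACGTG summits. The 10 peaks shared with both replicates were 9 to 14 under other rules. Of 35 such values, 27 stayed within 1.5 times. The counts of 7 of 10 genes and 10 of 14 peaks could not rise beyond that limit. The nearest-start setting could change nothing, so the tally is no measure of robustness. No paired analysis was possible because the replicates form 1 group. Depth is unknown, so a missing summit is not shown to be an absence of binding.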
